A study of Mus musculus with 12 samples.

Results

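The 10 genes described here encode enzymes that make prostanoids and receptors for prostaglandin E2 (PGE2). They were chosen by symbol, by a rule that uses no measured value but was set with earlier results of these data known, from the 47643 gene identifiers listed in each of both deposited tables: Ptgs1 and Ptgs2, Ptges, Ptges2 and Ptges3, Tbxas1, Ptgis and Hpgds, and Ptger2 and Ptger4. Each symbol matched 1 identifier in both tables, and each gene held at least 1 read in the 12 libraries. Of the 10, 9 passed the minimum mean needed for a test in every comparison, and Ptgs2 passed in none.

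Prostanoids are lipid mediators made from arachidonic acid, which phospholipases free from membranes. The cyclooxygenases, COX-1 encoded by Ptgs1 and COX-2 encoded by Ptgs2, turn it into PGH2. Terminal synthases then compete for PGH2: microsomal PGE synthase-1 (mPGES-1, Ptges), mPGES-2 (Ptges2) and the cytosolic PGE synthase p23 (Ptges3) form PGE2, thromboxane synthase (Tbxas1) forms thromboxane A2, prostacyclin synthase (Ptgis) forms PGI2, and the haematopoietic PGD synthase (Hpgds) forms PGD2. PGE2 acts on macrophages (Mϕ) mainly through the receptors EP2 (Ptger2) and EP4 (Ptger4), which raise cAMP. Resident peritoneal Mϕ are known for making PGI2 and thromboxane.

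Peritonitis was elicited in female C57/BL6 mice, 8 to 12 weeks old, with 5 mg/kg zymosan A i.p., a yeast cell wall preparation that all groups received. From day 1 on, they received 1 injection a day of compound III (CIII, 25 mg/kg), which inhibits mPGES-1, or of its vehicle (VEH: Tween-80, carboxymethyl-cellulose and NaCl). CIII blocks the enzyme encoded by Ptges, not its mRNA. Lavage cells of day 6 were sorted as CD45+ CD11b+ into F4/80lo Mϕ (F4/80 and MerTK low, MHCII high), considered infiltrating, and F4/80hi Mϕ (F4/80 and MerTK high), considered resident. Each of the 4 groups (VEH F4/80lo, CIII F4/80lo, VEH F4/80hi, CIII F4/80hi) held 3 libraries, numbered 1 to 3. Mice without zymosan were not analysed here, so the 4 groups carry no value of the uninflamed cavity. The labels do not name the animals behind the libraries, so p-values measure only the spread between these libraries, which may be technical.

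The libraries held 426624 to 3389448 UMI-collapsed reads on genes, of which the 10 genes took 350 to 1855 reads. Both F4/80hi libraries numbered 3 stood apart and went against their label in several markers. Alox15, a marker of resident peritoneal Mϕ, was at 30.2 CPM (reads per 1000000 reads on genes, with each library total multiplied by its TMM factor of 0.847 to 1.11) in VEH library 3 and 12.7 CPM in CIII library 3, against 690 to 1448 CPM in the other F4/80hi libraries. Gata6, the transcription factor that defines these cells, was at 2.24 and 6.03 CPM against 23.2 to 50.1 CPM. Adgre1, which encodes F4/80 itself, was at 431 and 386 CPM against 1085 to 1287 CPM, and at 195 to 360.4 CPM in F4/80lo. Not all resident markers were low there: Mertk was at 199 and 347 CPM against 184 to 419 CPM, and Timd4 at 93.0 and 153 CPM against 75.7 to 352 CPM. Over the list of 10 resident markers the sums were 874 and 1113 CPM against 3920 to 6104 CPM, and 705 to 1845 CPM in F4/80lo. Ccr2, a receptor of monocyte-derived cells, was at 1411 and 740 CPM against 19.5 to 306 CPM, while Mrc1 and Irf4 of the same list were lower in both than in the other F4/80hi libraries (204 and 203 CPM against 336 to 1003 CPM for Mrc1). The list of 10 monocyte-derived markers summed to 3347 and 9227 CPM, against 966 to 4643 CPM in the other F4/80hi libraries and 3843 to 15563 CPM in F4/80lo. F4/80lo CIII library 2 held more Alox15 (450 CPM) than the other F4/80lo libraries (9.75 to 137 CPM). Most levels and changes that rest on the F4/80hi libraries are therefore also given without number 3. Pan-macrophage markers summed to 10042 to 15366 CPM in the F4/80lo libraries, with no overlap to the 16006 to 28095 CPM of F4/80hi. The markers of cells known for PGD2, thromboxane or PGI2 were low beside these, though not below every weakly read member. Summed over each list, mast cell markers reached 0 to 7.99 CPM (4 of 6 with a read, Mcpt4 and Fcer1a at 0), eosinophil markers 0 to 15.2 CPM (2 of 4, Prg2 and Epx at 0), platelet markers 0 to 4.41 CPM (3 of 4, Gp9 at 0), mesothelial markers 0 to 2.24 CPM (3 of 6, Msln, Upk3b and Krt19 at 0) and endothelial markers 3.80 to 21.1 CPM (4 of 4). Neutrophil markers summed to 34.9 to 148 CPM, B cell markers to 0 to 175 CPM, T and NK cell markers to 1.39 to 35.8 CPM and dendritic cell markers to 1.305 to 233 CPM.

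**Figure D1:**
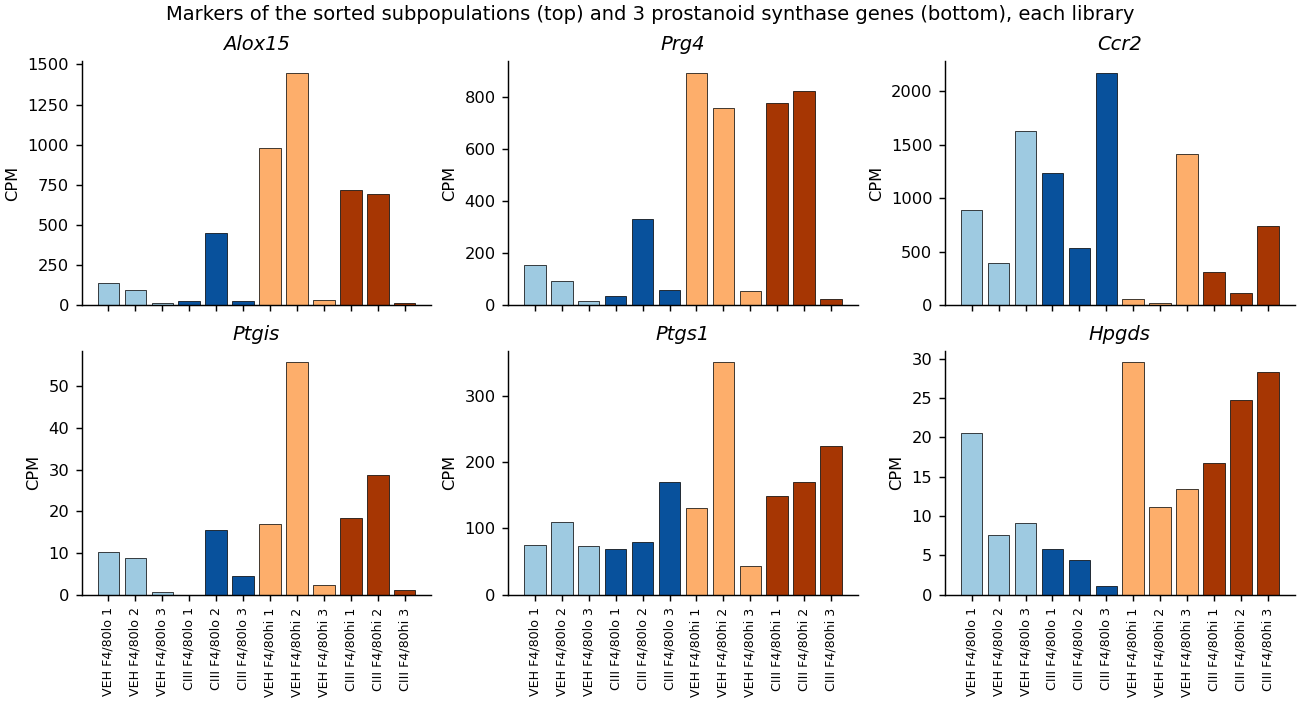
CPM in each of the 12 libraries (bars) of the resident markers Alox15 and Prg4 and the monocyte marker Ccr2 (top) and of Ptgis, Ptgs1 and Hpgds (bottom), coloured by group. F4/80hi libraries numbered 3 are low in Alox15, Prg4 and Ptgis and high in Ccr2, while Hpgds is at 13.4 CPM (VEH) and 28.3 CPM (CIII) there.

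The starts of 5 genes are shown, chosen from the levels described below. They are the strongly read COX gene Ptgs1, Ptgs2, which held 2 reads, and the gene of the inhibited enzyme. The others are the most strongly read synthase gene and Hpgds. Between the subpopulations, Hpgds had the smallest limma p of the members over all libraries. RefSeq promoters (GRCm38.p6) were found for 9 of the 10 genes. Ptgis had no entry. The RefSeq starts of Ptges and Tbxas1 lie inside the annotated gene spans (chr2:30889471-30929863 and chr6:38875404-39084585), not at their 5′ ends. Which start these cells use was not measured. Each sequence holds 250 bases before and 30 bases after the annotated start and reads 5′ to 3′ on the strand of the gene, in the order Ptgs1 (chr2:36230176-36230455, plus strand), Ptgs2 (chr1:150099781-150100060, plus strand), Ptges (chr2:30903268-30903547, minus strand), Tbxas1 (chr6:38918736-38919015, plus strand) and Hpgds (chr6:65144701-65144980, minus strand). Capitals mark matches, on either strand, to the core promoter box TATAAA, the core of the cAMP response element ACGTCA, the E-box motif CACGTG, the GC box motif GGGCGG or the Ets/PU.1 type motif GAGGAAGT.
Ptgs1: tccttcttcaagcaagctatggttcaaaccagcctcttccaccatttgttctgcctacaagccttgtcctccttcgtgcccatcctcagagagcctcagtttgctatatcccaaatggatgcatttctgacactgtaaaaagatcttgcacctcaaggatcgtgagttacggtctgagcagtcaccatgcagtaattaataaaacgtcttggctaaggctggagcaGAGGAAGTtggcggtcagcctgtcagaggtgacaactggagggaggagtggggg
Ptgs2: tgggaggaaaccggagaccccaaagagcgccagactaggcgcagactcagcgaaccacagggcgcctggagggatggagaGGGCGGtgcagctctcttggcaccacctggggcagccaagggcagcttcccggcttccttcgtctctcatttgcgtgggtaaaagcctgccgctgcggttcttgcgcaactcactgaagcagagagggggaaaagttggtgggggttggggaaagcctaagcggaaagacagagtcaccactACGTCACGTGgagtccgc
Ptges: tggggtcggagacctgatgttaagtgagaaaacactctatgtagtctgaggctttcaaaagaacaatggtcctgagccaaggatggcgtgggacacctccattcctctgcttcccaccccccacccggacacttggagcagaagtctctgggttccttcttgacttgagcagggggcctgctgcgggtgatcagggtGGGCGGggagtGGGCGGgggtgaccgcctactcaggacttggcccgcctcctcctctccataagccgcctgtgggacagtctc
Tbxas1: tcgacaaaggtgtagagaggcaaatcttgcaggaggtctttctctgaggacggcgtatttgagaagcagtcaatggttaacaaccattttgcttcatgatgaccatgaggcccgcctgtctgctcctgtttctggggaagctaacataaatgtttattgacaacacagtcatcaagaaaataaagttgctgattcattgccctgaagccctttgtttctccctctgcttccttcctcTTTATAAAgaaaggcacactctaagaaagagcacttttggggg
Hpgds: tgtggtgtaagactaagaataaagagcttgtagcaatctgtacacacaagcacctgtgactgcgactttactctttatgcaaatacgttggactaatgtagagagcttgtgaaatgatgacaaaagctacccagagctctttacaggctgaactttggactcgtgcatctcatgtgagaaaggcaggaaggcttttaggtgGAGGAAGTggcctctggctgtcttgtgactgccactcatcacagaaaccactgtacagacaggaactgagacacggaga

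Ptgs1 and Hpgds each held 1 match to GAGGAAGT, at -24 and -49 from the start, a motif found in 2.82% of the 32851 RefSeq promoters of this length. Ptgs2 held the cAMP element core and the E-box at 13 and 17, sharing 2 bases, and a GC box at -170. The core was present in 7.26% and the E-box in 6.79% of all promoters. Ptges held GC boxes at -53 and -42, a motif of 34.7% of the promoters. Tbxas1 held TATAAA on both strands at -13 and -11, a motif of 13.1% of the promoters. A match describes the letters and is not a binding site that was measured here.

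The libraries count about 1 read for each captured transcript from its 3′ end, so CPM was compared between genes without division by length. Whole reads recovered from both tables were scaled together to CPM for this purpose. Tbxas1 was the most strongly read of the 10 genes and Ptgs1 came next, and together they took 77.2% ± 3.68 (SD, n = 12) of all reads on the 10 genes. Tbxas1 ranged from 251 CPM over a median of 419 to 516 CPM across the 12 libraries and lay above Ptgs1 in 12 of 12. Ptgs1 ranged from 43.7 over 121 to 351 CPM and lay above Ptger4 in 10 of 12 libraries. Then came Ptger4 (median 65.0 CPM), Ptges3 (47.1 CPM) and Ptger2 (19.01 CPM). Ptges3 lay above Ptger2 in 12 of 12 libraries, while Ptger4 lay above Ptges3 in 9. The order of the weaker genes Hpgds (median 12.3 CPM), Ptgis (9.56 CPM), Ptges2 (6.23 CPM) and Ptges (4.90 CPM) changed from library to library: Hpgds lay above Ptgis in 6 of 12 libraries, Ptgis above Ptges2 in 6 and Ptges2 above Ptges in 7. The ranges of all neighbours in this order overlapped.

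COX-2 mRNA was close to undetected. Ptgs2 held 2 reads in VEH F4/80lo library 3, the deepest library, and 0 reads in the other 11. The 0 reads among the 6201666 of the F4/80hi libraries allow up to 0.500 CPM. In each of the 11 libraries at 0, this count allows 1.81 to 6.62 CPM. These limits cover counting error only. The gene of the inhibited enzyme was also weakly read. Ptges held 62 reads in 12 libraries, between 0 and 13 per library, at 0 to 17.0 CPM. Of the reads on the 6 terminal synthase genes, Tbxas1 took 84.2% ± 4.21 (SD, n = 6) in F4/80lo libraries and 81.1% ± 4.55 in those of F4/80hi, or 80.0% ± 5.43 (n = 4) there without number 3. Of the reads on the EP2 and EP4 genes, Ptger4 took 74.8% ± 10.9 (SD, n = 6) in F4/80lo libraries and 69.6% ± 10.9 in those of F4/80hi, or 68.7% ± 13.5 (n = 4) there without number 3.

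**Figure D2:**
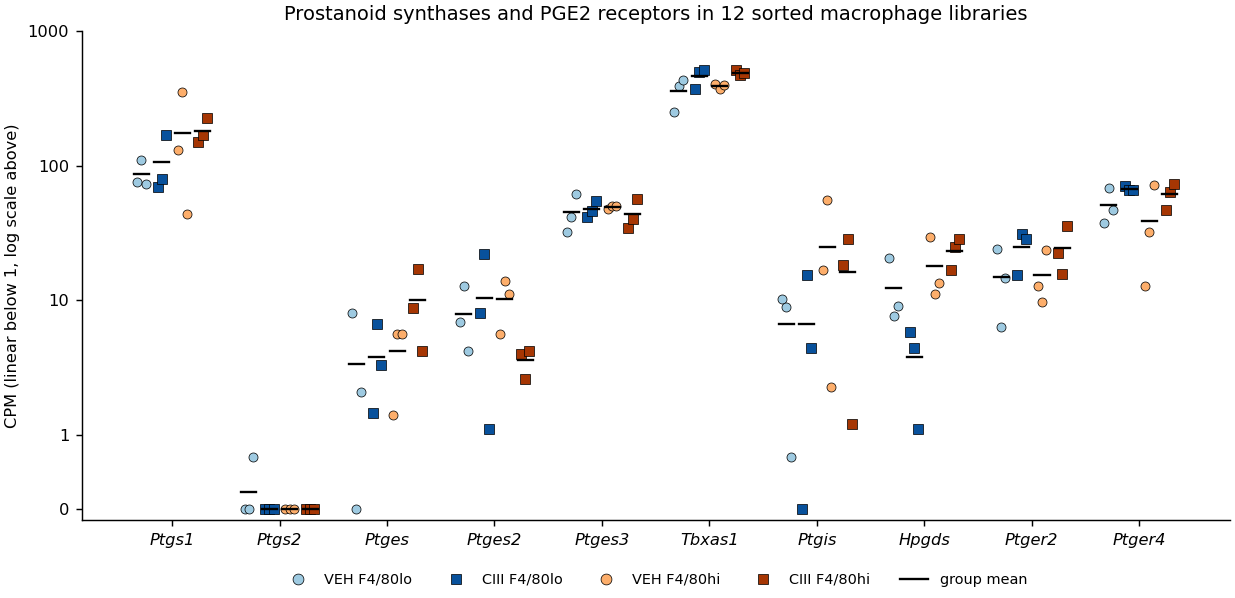
CPM of the 10 genes in the 12 libraries (points, 3 per group; black bars are group means), on an axis that is linear below 1 and logarithmic above. Tbxas1 lies between 251 and 516 CPM in every library, Ptgs2 has reads in 1 library, and Ptges stays at or below 17.0 CPM.

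F4/80lo and F4/80hi Mϕ were compared first, over both treatments. Of all 10726 genes tested, limma called 2 (0.0186%) at an adjusted p under 0.05 and gave an unadjusted p under 0.05 for 996 (9.29%). In 90 genes (0.839%) the 6 F4/80lo and 6 F4/80hi libraries did not overlap, and none of the 9 tested members was among those or among the called genes. The median log2 difference (F4/80lo minus F4/80hi) was -0.14 over the members and 0.00 over all genes tested. The replicate numbers were taken to pair the libraries, from correlated deviations in these same data and not from the labels. With this pairing as a replicate block 549 genes (5.12%) were called, among the members Hpgds alone. The block restricted to numbers 1 and 2, which leaves out the F4/80hi libraries low in Alox15, Prg4 and Gata6 and their partners, called 1176 of 10671 genes (11%), among the members Ptgs1 and Ptgis but not Hpgds. This fit was chosen after seeing the data and rests on 4 pairs. In bulk samples, fewer cells of a type and less RNA per cell cannot be told apart.

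Hpgds, the PGD2 synthase gene, was lower in F4/80lo Mϕ in all 6 pairs. Its CPM was 20.51, 7.60 and 9.06 in VEH F4/80lo libraries 1 to 3 and 5.81, 4.41 and 1.102 in CIII F4/80lo libraries. In F4/80hi it was 29.5, 11.1 and 13.4 (VEH) and 16.8, 24.8 and 28.3 (CIII). The subpopulations overlapped, since VEH F4/80lo library 1 lay above VEH F4/80hi libraries 2 and 3 and CIII F4/80hi library 1. The log2 difference was -1.49 (95% interval -2.45 to -0.54, n = 6 per side), with a limma p of 0.00472 and an adjusted p of 0.299. The exact permutation test of 6 against 6 gave p = 0.0152 (two-sided; the smallest possible is 0.00216). With the replicate block the interval was -2.38 to -0.61 and the adjusted p 0.0482. Without the F4/80hi libraries numbered 3 the difference was -1.47 (adjusted p = 0.155), and the block over numbers 1 and 2 gave -1.15 (-2.25 to -0.05, adjusted p = 0.182). Within VEH alone it was -0.49 (adjusted p = 0.975) and within CIII alone -2.50 (adjusted p = 0.461). The summed mast cell markers were at most 2.81 CPM in the F4/80hi libraries, below every Hpgds level there, but at 7.99 and 3.31 CPM they lay above Hpgds in CIII F4/80lo libraries 1 and 3, as did eosinophil markers (15.2 CPM) in VEH F4/80lo library 2. Their part in the Hpgds level was not tested.

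Ptgs1 was lower in F4/80lo in 5 of 6 pairs, and it passed the test only without number 3 and with the block. It was at 75.2, 110 and 73.5 CPM in VEH F4/80lo and 69.0, 79.5 and 170 CPM in CIII F4/80lo, against 131, 351 and 43.7 CPM in VEH F4/80hi and 149, 170 and 225 CPM in CIII F4/80hi. The exception was number 3 of VEH, where the F4/80hi library held the lowest level of all 12. The log2 difference was -0.72 (95% interval -1.60 to 0.17, adjusted p = 0.634, limma; exact permutation p = 0.149). Under the replicate block the adjusted p was 0.0955. Without the F4/80hi libraries numbered 3 the difference was -0.99 (adjusted p = 0.129), and with numbers 1 and 2 only it was -1.15 (adjusted p = 0.0538). The block over these 4 pairs put the interval at -1.59 to -0.71 (adjusted p = 0.000101).

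Ptgis, the PGI2 synthase gene, was low in the F4/80hi libraries numbered 3. In F4/80hi Mϕ it was at 16.9 and 55.7 CPM in VEH libraries 1 and 2 and at 18.4 and 28.7 CPM in CIII libraries 1 and 2, but at 2.24 and 1.21 CPM in those numbered 3. In F4/80lo it was at 10.3, 8.87 and 0.697 CPM (VEH) and 0, 15.4 and 4.41 CPM (CIII), highest in the CIII library 2 that also held the most Alox15 of the F4/80lo libraries. The log2 difference was -1.33 (95% interval -3.30 to 0.64, adjusted p = 0.705) over all libraries and -2.44 (-4.14 to -0.74, adjusted p = 0.113) without the F4/80hi libraries numbered 3. Over numbers 1 and 2, the replicate block gave -2.09 (-3.25 to -0.93, adjusted p = 0.0103), with Ptgis lower in F4/80lo in all 4 pairs. Summed endothelial markers lay above Ptgis in both F4/80hi libraries numbered 3 (13.4 and 4.82 CPM) and in VEH library 3 and CIII libraries 1 and 3 of F4/80lo (12.9, 21.1 and 5.51 CPM), and at its level in CIII F4/80lo library 2. Pecam1 and Kdr made up most of these sums (7.84 and 4.48 CPM in VEH F4/80hi library 3). Cdh5 and Tie1 were at or below 3.80 and 2.21 CPM in all 12 libraries. Mesothelial markers were at or below 2.24 CPM in all 12 libraries. The sort took CD45+ cells, and endothelial and mesothelial cells lack CD45. The parts of the sort and of these cells in the Ptgis level were not tested.

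The receptor gene Ptger4 stood the other way, at 0.41 (95% interval -0.36 to 1.17, adjusted p = 0.771) and at 0.80 (0.09 to 1.51, adjusted p = 0.201) without the F4/80hi libraries numbered 3. VEH F4/80hi libraries 1 and 2 were its lowest at 12.7 and 32.0 CPM, and the other 10 libraries lay between 37.6 and 73.5 CPM. For Ptges the difference was -0.90 (-2.28 to 0.47, adjusted p = 0.715), on 21 reads in F4/80lo and 41 in F4/80hi. Tbxas1 differed by -0.14 (-0.58 to 0.31), Ptges3 by -0.02 (-0.56 to 0.52), Ptger2 by -0.04 (-0.90 to 0.83) and Ptges2 by 0.18 (-1.06 to 1.42). Without the F4/80hi libraries numbered 3, these differences were -0.99 for Ptges, -0.10 for Tbxas1, 0.11 for Ptges3, 0.31 for Ptger2 and 0.30 for Ptges2, so that those of Ptges3 and Ptger2 changed sign.

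**Figure D3:**
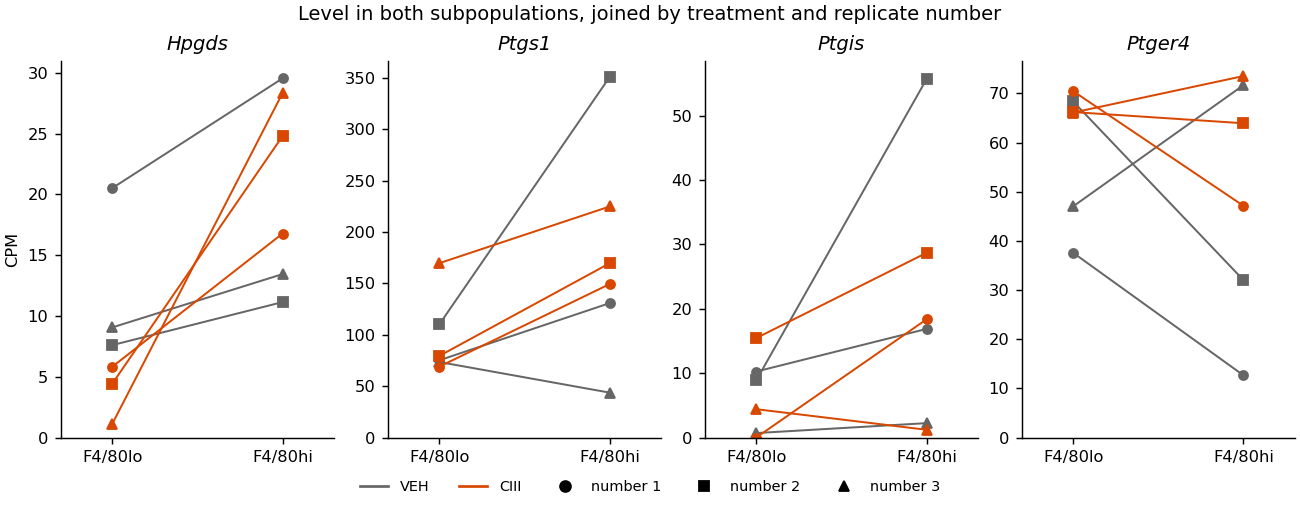
CPM of Hpgds, Ptgs1, Ptgis and Ptger4 in F4/80lo and F4/80hi Mϕ (left and right of each panel), with lines joining libraries of the same treatment (grey VEH, orange CIII) and replicate number (symbol). All 6 Hpgds lines rise from F4/80lo to F4/80hi, 5 of 6 do for Ptgs1 and for Ptgis, and 2 of 6 for Ptger4.

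The genes whose pattern over the 12 libraries was most like that of Ptgs1, by Pearson correlation of log2(CPM + 1) among 8447 other genes with a mean of at least 10 CPM, were Slc7a2, a transporter of cationic amino acids (r = 0.946), Ackr3, an atypical chemokine receptor (r = 0.944), and F10, coagulation factor X (r = 0.915). Slc7a2 had a mean of 61.9 CPM in F4/80lo and 334 CPM in F4/80hi, Ackr3 of 3.77 and 17.7 CPM and F10 of 300.2 and 445 CPM. All 12 points share their sort, depth and replicate numbers with Ptgs1, and the 3 genes are the extreme of many correlations.

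CIII against VEH was then compared within each subpopulation on the deposited normalized counts, each table with its own size factors. In F4/80lo Mϕ limma called 0 of 10718 genes (0%) at an adjusted p under 0.05, DESeq2 on the recovered reads 2 and edgeR 0. An unadjusted p under 0.05 was found for 289 genes (2.7%), and treatments did not overlap in 936 (8.73%). Of the 9 members, 0 had an unadjusted p under 0.05 and Hpgds alone did not overlap. In F4/80hi Mϕ limma called 0 of 10499 (0%), as did DESeq2 and edgeR. The unadjusted p was under 0.05 for 413 genes (3.93%), with 0 members among them, and treatments did not overlap in 1102 (10.5%), with 2 members, Ptges2 and Tbxas1. The median log2 change of the 9 members was 0.21 in F4/80lo and 0.40 in F4/80hi, against -0.05 and 0.05 over all genes tested, and 6 of 9 had a positive change in each. All adjusted p-values of the members lay above 0.99, and with 3 against 3 libraries the smallest exact permutation p is 0.1. No difference named below passed the test in either subpopulation. Of 12 marker lists, 2 did not overlap between treatments in F4/80lo. T and NK cell markers (6 of 6 with a read) summed to 6.33 to 17.4 CPM under VEH and 20.9 to 28.3 CPM under CIII. The monocyte-derived markers (10 of 10) summed to 3843 to 8202 CPM and 9632 to 15563 CPM. Of these, H2-Aa (711 to 4507 against 5030 to 7938 CPM), H2-Eb1 (676 to 2095 against 2097 to 4413 CPM), Cx3cr1 and Itgb7 separated the treatments. Ccr2 (396 to 1628 against 532 to 2176 CPM), Ly6c2, Irf4, Cd226, Folr2 and Mrc1 overlapped. The paper names Cx3cr1, Itgb7 and H2-Eb1 as raised with CIII in both subpopulations. The part of both lists in the F4/80lo changes below was not tested. In F4/80hi 0 of the 12 marker lists separated the treatments.

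Of the cyclooxygenase genes, only Ptgs1 could be compared. In F4/80lo its normalized counts were 76.8, 112 and 70.3 under VEH and 67.4, 82.2 and 170 under CIII, a log2 change of 0.21 (95% interval -0.71 to 1.14, exact permutation p = 0.7). CIII library 3 alone lay above the VEH range. In F4/80hi they were 124, 329 and 40.9 under VEH and 135, 156 and 204 under CIII, a change of 0.45 (-1.01 to 1.91, exact permutation p = 0.7). The CIII libraries lay within the wide VEH range. With numbers 1 and 2 only, both changes were negative, at -0.31 in F4/80lo and -0.47 in F4/80hi.

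For Ptges, the gene of the enzyme that CIII inhibits, normalized counts in F4/80lo were 8.15, 0 and 1.9985 under VEH and 1.42, 6.85 and 3.32 under CIII, from 13 and 8 reads. In F4/80hi they were 1.33, 5.23 and 5.24 under VEH and 7.94, 15.6 and 3.83 under CIII, from 10 and 31 reads. CIII libraries 1 and 2 of F4/80hi lay above all VEH libraries, and CIII library 3 among them. The change in F4/80lo was 0.53 (95% interval -1.92 to 2.98), and it was 1.00 (-0.75 to 2.74, exact permutation p = 0.3) in F4/80hi. With numbers 1 and 2 only, the F4/80hi change was 1.68 (-0.29 to 3.65, adjusted p = 0.683). Increases and decreases both lie within these intervals.

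Ptges2 was at 5.32, 13.1 and 10.5 normalized counts under VEH and at 3.61, 2.40 and 3.83 under CIII in F4/80hi Mϕ. All CIII libraries, with 14 reads in sum, lay below all VEH libraries, with 24. The change was -1.25 (95% interval -2.75 to 0.25, limma p = 0.0923, exact permutation p = 0.1). In F4/80lo it was -0.11 (-2.17 to 1.96), with 6.98, 12.8 and 3.997 under VEH and 7.80, 22.8 and 1.11 under CIII. Ptges3, which also encodes the co-chaperone p23, had a log2 change of 0.13 (-0.76 to 1.02) in F4/80lo Mϕ, and of -0.24 (-1.06 to 0.57) in the other subpopulation, with all 12 libraries between 31.0 and 59.3 normalized counts.

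Tbxas1, which competes with the PGE synthases for PGH2, lay higher with CIII in all 6 pairs of equal replicate number. The log2 changes were 0.31 to 0.50 among F4/80lo pairs and 0.25 to 0.33 among F4/80hi pairs. VEH and CIII libraries come from different mice. Libraries of both subpopulations with 1 number deviated together, so the 6 pairs are not independent. The share of all genes with this pattern was not counted. Normalized counts of Tbxas1 in F4/80hi were 384, 346 and 373 under VEH and 466, 436 and 444 under CIII, with no overlap (exact permutation p = 0.1). In F4/80lo they were 256, 398 and 413 under VEH and 362, 519 and 514 under CIII, and CIII library 1 lay within the VEH range. The fitted changes were 0.29 (95% interval -0.39 to 0.96) and 0.40 (-0.37 to 1.17), and without VEH library 1 the F4/80lo change was 0.18. The replicate block narrowed these intervals to -0.24 to 0.81 and -0.14 to 0.93. The standard errors, which limma moderates over all genes, were 0.30 in F4/80hi and 0.35 in F4/80lo.

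Over all libraries, Hpgds gave the largest change of the members in F4/80lo Mϕ. Its normalized counts were 20.9, 7.70 and 8.66 under VEH and 5.67, 4.57 and 1.11 under CIII, from 50 and 11 reads, and all CIII libraries lay below all VEH libraries. The log2 change was -1.52 (95% interval -3.29 to 0.25, limma p = 0.085, exact permutation p = 0.1). With numbers 1 and 2 only, the F4/80lo change of Ptgis (-1.38) was larger than that of Hpgds (-1.18). In F4/80hi the Hpgds counts were 27.9, 10.5 and 12.6 under VEH and 15.2, 22.8 and 25.7 under CIII, a change of 0.40 (-0.77 to 1.57). The difference between both changes was -1.92 (-3.83 to -0.01), with an adjusted p of 0.999 over 10097 genes. In that test limma called 0 genes (0%) and 173 (1.71%) had an unadjusted p under 0.05. Under the replicate block the interval of the Hpgds difference was -3.74 to -0.10 (adjusted p = 0.898). With numbers 1 and 2 only the difference was -1.29 (-3.59 to 1.01). The differences of the other 8 members ran from -0.47 (Ptges) to 1.14 (Ptges2), and all their intervals included 0. In F4/80lo Ptgis had a change of -0.35 (-2.97 to 2.27), and in F4/80hi of -0.49 (-3.18 to 2.20). In F4/80hi the lowest level of each treatment was that of number 3.

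Both receptor genes had positive changes. Ptger4 was at 38.4, 69.3 and 45.0 normalized counts under VEH and 68.8, 68.5 and 66.3 under CIII in F4/80lo Mϕ, a change of 0.45 (95% interval -0.39 to 1.29). The CIII libraries lay close to the highest VEH library. In F4/80hi it was at 11.97, 30.05 and 67.1 under VEH and 42.6, 58.9 and 66.7 under CIII, a change of 0.90 (-0.42 to 2.21). The replicate block gave an interval of 0.04 to 1.75 (adjusted p = 0.421), and with numbers 1 and 2 only the change was 1.35 (0.19 to 2.51, adjusted p = 0.626). Without VEH library 1, the lowest, the change was 0.29, without VEH library 3 it was 1.48, and DESeq2 on the recovered reads gave 0.61. VEH library 3, low in several resident markers, lay at the level of the highest CIII library. The change of Ptger2 was 0.82 (-0.52 to 2.16) in F4/80lo, but 0.36 without VEH library 2 and 0.0483 with array weights, and number 1 went the other way, from 24.4 to 14.9 normalized counts. In F4/80hi it was 0.62 (-0.58 to 1.81), and all 3 pairs were higher with CIII, by 0.53 to 0.71. With numbers 1 and 2 only, the remaining F4/80hi changes were -1.25 for Ptges2, -0.43 for Ptges3, 0.31 for Tbxas1, -0.45 for Ptgis, 0.11 for Hpgds and 0.66 for Ptger2, each with the sign it had over all libraries.

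**Figure D4:**
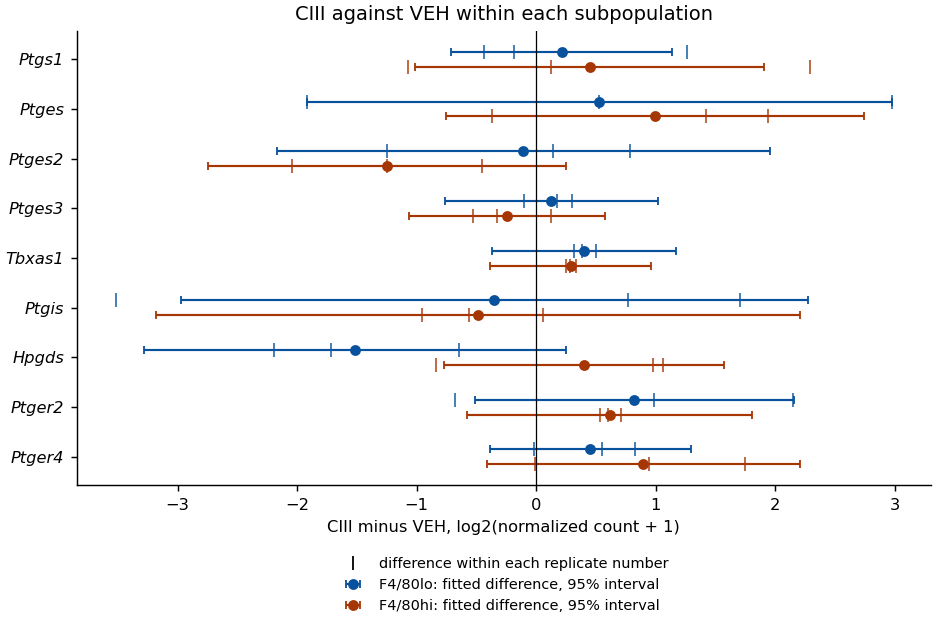
CIII minus VEH on the log2(normalized count + 1) scale for the 9 tested genes in F4/80lo (blue) and F4/80hi (brown) Mϕ; circles are fitted differences, bars 95% intervals and ticks the differences within each replicate number. Every interval includes 0, and the Tbxas1 ticks lie to the right of 0 in both subpopulations.

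The remaining pathway was read from 5 lists of 47 genes. Of the other prostanoid receptors, 6 of 7 (Ptger1, Ptger3, Ptgdr, Ptgdr2, Ptgfr and Tbxa2r) held 0 reads in all 12 libraries, which allows up to 0.226 CPM over all reads, and Ptgds, the other PGD synthase, also held 0. The prostacyclin receptor gene Ptgir was at 57.7 ± 20.7 CPM in F4/80lo and 84.1 ± 34.7 CPM in F4/80hi (SD, n = 6). Of 13 genes of arachidonic acid supply, 10 held a read and 8 were tested. Pla2g7, which encodes the secreted PAF acetylhydrolase, led at 403 ± 184 and 524 ± 297 CPM, while Pla2g4a, the cytosolic phospholipase A2, was at 28.1 ± 22.9 and 37.0 ± 17.2 CPM. Of transport and inactivation, Hpgd (16 reads) and the transporter gene Slco2a1 (8 reads) were below the filter, and Ptgr1, a prostaglandin reductase, was at 55.6 ± 21.6 and 122 ± 72.9 CPM.

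With CIII, 0 genes of any list passed the adjusted test in either subpopulation. In F4/80lo 0 of the 29 tested had an unadjusted p under 0.05 (2.7% of all genes tested), and the treatments did not overlap in 3, Pla2g15, Akr1b8 and Ptgr2 (8.73% of all genes tested). In F4/80hi Pla2g16, a phospholipase A, was at 165, 124 and 161 normalized counts under VEH and 68.6, 27.6 and 72.8 under CIII, a change of -1.51 (95% interval -2.47 to -0.54, adjusted p = 0.992). Its adjusted p under the replicate block was 0.155. Fam213b, a prostamide and PGF synthase gene, was at 26.6, 31.4 and 19.9 under VEH and 12.99, 12.02 and 6.56 under CIII, a change of -1.25 (adjusted p = 0.992). Abcc4, which encodes the PGE2 exporter MRP4, was at 18.6, 15.7 and 37.7 under VEH and 65.7, 51.7 and 57.4 under CIII, a change of 1.34 (0.37 to 2.31, adjusted p = 0.992). These were the 3 of 27 tested list genes whose treatments did not overlap, against 10.5% of all genes tested, and the 3 with an unadjusted p under 0.05, against 3.93%. They are named for these values. With numbers 1 and 2 only the changes were -1.69 for Pla2g16, -1.15 for Fam213b and 1.71 for Abcc4. For Pla2g16 the change differed between the subpopulations by 1.61 (0.43 to 2.80, adjusted p = 0.999).

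Genes that cAMP is known to induce, the response downstream of EP2 and EP4, had a median change of -0.18 over 13 tested in F4/80lo and 0.30 over 11 tested in F4/80hi, with 5 and 9 of them positive. The smallest p belonged in F4/80lo to Rgs2, a regulator of G protein signalling, with 255, 181 and 146 normalized counts under VEH and 351, 388 and 244 under CIII, a change of 0.76 (-0.02 to 1.55). In F4/80hi it belonged to Dusp1, a phosphatase of MAP kinases, with a change of 0.88 (-0.48 to 2.23). Median changes were 0.03 in F4/80lo and 0.47 in F4/80hi for arachidonic acid supply, -0.95 and -0.44 for the other synthases and reductases (4 tested) and 0.09 and 0.48 for transport and inactivation (3 tested). With numbers 1 and 2 only, the F4/80hi medians were 0.30 for the cAMP response genes, 0.37 for supply, -0.11 for the other synthases and reductases and 0.77 for transport and inactivation, and the change of Dusp1 was -0.11. In F4/80lo the cAMP median was then -0.38 and that of supply 0.06.

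Between the subpopulations, 0 of the genes of the 5 lists passed the adjusted test. With the replicate block Ptgr1 (-0.97, adjusted p = 0.0203, lower in F4/80lo in 6 of 6 pairs) and Rgs2 (0.59, adjusted p = 0.048, higher in 6 of 6 pairs) did, 2 of 27 tested list genes against 5.12% of all genes. Without the F4/80hi libraries numbered 3 and without the block, Ptgr1 was at -1.42 (adjusted p = 0.0463) and Rgs2 at 0.57 (adjusted p = 0.288). The block over numbers 1 and 2 called 3 of 29 tested list genes, against 11% of all genes, Ptgr1 at -1.26, Rgs2 at 0.73 and Pla2g4a at -1.56 (adjusted p = 0.0486). Over all libraries Pla2g4a was at -0.99 (limma adjusted p = 0.741, and 0.236 with the block). It was lower in F4/80lo in 4 of 6 pairs, with number 2 of CIII at -4.83. Akr1b8, an aldose reductase family gene, had -1.67 (adjusted p = 0.49, lower in 6 of 6 pairs), Pla2g16 -0.63 (adjusted p = 0.50) and Nr4a2, an immediate early gene, 1.15 (adjusted p = 0.498). Arachidonic acid itself was not measured. All 8 tested genes of its supply list had a negative difference, with a median of -0.30. The 4 other synthases and reductases had a median of -0.53 and the 11 cAMP response genes 0.38, against 0.00 over all genes tested. Without the F4/80hi libraries numbered 3 these medians were -0.43, -0.81 and 0.36, against 0.03, and Pla2g7 turned to 0.12.

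Reads of overlapping genes may bear on 3 of the members. Ptger4 overlaps Ttc33 (317 reads) and the pseudogene Gm15937 (93 reads), both annotated on the other strand, against 735 reads of its own. Tbxas1 (5703 reads) overlaps Hipk2 (1132 reads), also on the other strand, antisense genes with 1 and 4 reads, and the snoRNA gene Gm23010 on its own strand (3 reads). Ptger2 (265 reads) lies in the antisense gene Gm17173 (6 reads). The strand setting of the counting was not given in the sources used here. Whether reads of a gene and its antisense partner were kept apart is therefore not known. Ptges3 has a processed pseudogene, Ptges3-ps, which held 4 reads.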

How the data were processed

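Sorted F4/80lo and F4/80hi Mϕ of day 6, 3 libraries per treatment, were analysed. The authors made QuantSeq 3′ libraries with UMI and used the Bluebee pipeline (Bbduk, STAR on GRCm38, UMI collapse, HTSeq, DESeq2; versions not given in the sources used here). The deposited values are normalized count signal, whole reads divided by a size factor that the authors set within each subpopulation. Whole reads were recovered by dividing by the value of 1 read (100% of values whole within a tolerance of 0.1). Symbols were taken from GENCODE for 47224 of 47643 identifiers. Rows without a gene identifier: 0.

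CIII against VEH was tested per table with limma 3.58.1 in R 4.3.3 (mean-variance trend, two-sided) on log2(normalized count + 1), for genes with a mean of at least 3. Fold changes on this scale understate changes of weak genes. Levels in F4/80lo against F4/80hi used log2(CPM + 1) of the recovered reads with TMM factors from edgeR 4.0.16 over 12 libraries, which undoes the separate size factors. The Benjamini-Hochberg threshold was 0.05. DESeq2 1.42.0 and edgeR were run as alternatives. Named were the 10 genes, in each pathway list up to 4 genes with the smallest p, and the 3 genes most like Ptgs1, used because Ptges had a mean under 10 CPM. Further genes at 0 or with the highest level, and marker genes, were named after their values were seen. The genes, lists and markers were chosen with earlier results of these data known, and of the alternatives, 6 were chosen after seeing the data. Fits were tested on simulated data. Figures were drawn with matplotlib 3.10.9.

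Libraries of the same number deviated together from their group means: the correlation across genes was 0.121 to 0.504 in F4/80lo, 0.216 to 0.639 in F4/80hi and 0.263 to 0.691 between the subpopulations, against at most 0.285 for different numbers. Between treatments not every number stood out. VEH and CIII libraries 1 correlated at 0.121 in F4/80lo and 0.216 in F4/80hi. VEH library 1 with CIII library 2 gave 0.171 and 0.285. The numbers were taken to pair the libraries, from the data alone. A depth of 426624 to 3389448 reads makes 1 read worth 0.333 to 2.28 normalized counts, so the shallowest library is the least precise.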

Additional observations from a re-analysis of the deposited data

How the results depend on the processing

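The changes with CIII kept their direction and stayed short of the threshold in 123 of 138 alternative values in F4/80lo and 138 of 142 in F4/80hi Mϕ, and the Hpgds difference of the responses in 16 of 16. The levels of F4/80lo against F4/80hi did so in 200 of 223. Calls of 3 members changed there: the log2 difference of Hpgds, -1.49, passed with the replicate block, and those of Ptgs1, -1.15, and Ptgis, -2.09, passed with the block over numbers 1 and 2. The replicate block over all numbers changed no other call of a member.

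Some directions turned. For CIII in F4/80lo, Ptgs1 was -0.0459 with array weights and -0.31 with numbers 1 and 2 only, Ptges -0.73 with array weights, and Ptges2 0.0596 with a pseudocount of 5, 0.37 with DESeq2, 0.33 with edgeR and 0.46 with numbers 1 and 2 only. For CIII in F4/80hi, Ptgs1 was -0.47 with numbers 1 and 2 only. Between the subpopulations, Ptges2 was -0.36 in VEH libraries only. Ptges3 was 0.0098 with edgeR, 0.0544 without the TMM factor, 0.12 in CIII libraries only and 0.11 without the F4/80hi libraries numbered 3. Ptger2 was 0.035 without the TMM factor, 0.0178 in CIII libraries only, 0.31 without the F4/80hi libraries numbered 3 and 0.20 with numbers 1 and 2 only, with or without the block. The cause was not tested.

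With 1 library left out at a time, the sign of some members changed. For these the range for CIII in F4/80lo was -0.18 to 0.48 for Ptgs1, -0.27 to 0.95 for Ptges, -0.93 to 0.82 for Ptges2, -0.0757 to 0.35 for Ptges3 and -1.31 to 0.74 for Ptgis. In F4/80hi it was -0.31 to 1.18 for Ptgs1 and -1.58 to 0.64 for Ptgis. Between the subpopulations it was -0.22 to 0.64 for Ptges2, -0.15 to 0.11 for Ptges3 and -0.24 to 0.20 for Ptger2. Others kept their sign but moved by over 1.5 times. Their ranges for CIII were, in F4/80lo, 0.18 to 0.57 for Tbxas1, -1.84 to -1.01 for Hpgds, 0.36 to 1.24 for Ptger2 and 0.28 to 0.69 for Ptger4, and in F4/80hi, 0.52 to 1.44 for Ptges, -0.44 to -0.0838 for Ptges3, 0.13 to 0.80 for Hpgds, 0.32 to 0.95 for Ptger2 and 0.29 to 1.48 for Ptger4. Between the subpopulations they were -1.08 to -0.36 for Ptgs1, -1.29 to -0.50 for Ptges, -0.22 to -0.0174 for Tbxas1, -1.89 to -0.79 for Ptgis and 0.10 to 0.72 for Ptger4.

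Counts of called genes moved in 2 comparisons. In F4/80lo, CIII against VEH gave 2 with array weights, 2 with DESeq2 and 12 with numbers 1 and 2 only, against 0. Between the subpopulations, against 2 genes, a pseudocount of 5 gave 10, the replicate block 549, no filter 0, no TMM factor 4, DESeq2 140, VEH libraries only 0, the F4/80hi libraries numbered 3 left out 301, numbers 1 and 2 only 330, and these numbers with the block 1176. Leaving out 1 library gave 0 to 142, highest without VEH F4/80hi library 3. Depth limits the genes with the fewest reads, Ptgs2 with 2 and Ptges with 62 over all libraries.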
